A study of Homo sapiens with 6 samples.

Results

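Input RNA of starved A549 cells carrying a METTL16 shRNA was set against input RNA of starved A549 cells carrying a control shRNA, in order to describe which transcripts differ between the knockdown and the control before translation is considered. A549 is a human line of non-small cell lung cancer. The genes compared are those with a mean of at least 30 reads over the 3 input libraries, which left 3876 of the 60648 genes in the count table. The control group carried a control shRNA and was kept for 2 h in amino acid starvation medium, and the knockdown group carried a METTL16 shRNA and was kept in the same medium for the same time. Input RNA of METTL16 shRNA cells kept for 2 h in complete medium is given as a further level, while the control shRNA in complete medium was not analysed here. All groups received cycloheximide, which arrests elongating ribosomes, for 5 min, and the labels give their genotype as WT. Each group is 1 library, and the labels name neither the shRNA sequences nor whether a line is a pool or a clone, so shRNA, line and library cannot be told apart.

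METTL16 is a methyltransferase that places N6-methyladenosine on U6, the small nuclear RNA that forms the catalytic core of the spliceosome, and on hairpins at the end of the MAT2A transcript. MAT2A makes S-adenosylmethionine, the methyl donor of the cell, and METTL16 is known to tie splicing and stability of the MAT2A transcript to the level of that donor. Input RNA in a ribosome profiling experiment is total RNA that is broken chemically and cloned like the footprints, so small noncoding RNAs are counted beside mRNAs.

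Where values of all 3 input libraries follow, their order is starved control, starved knockdown, knockdown in complete medium. Total reads were 537558, 465303 and 775676, and 82.5% to 84.1% of them lay in the genes compared. Keratin genes of epithelial cells were well covered, KRT7 with 1000, 772 and 784 reads, whereas 3 of 28 alveolar and airway markers reached the minimum, ABCA3, CAV1 and MUC5AC, and no surfactant gene did. Of 12 fibroblast markers none reached the minimum and 6 had no read, with 14, 16 and 13 reads summed over the list. Of 14 leukocyte and erythroid markers none reached it and 13 had no read, with 3, 6 and 8 reads. Small nuclear RNAs took 1.71%, 4.05% and 2.57% of all reads, a larger share in both knockdown libraries.

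With 1 library a side there is no replicate spread, so no p-value is given and each difference compares single libraries. A level is given in CPM, the read count relative to the library's TMM-adjusted total, and a difference is the log2 ratio of the starved knockdown to the starved control. The interval in brackets is an exact binomial (Clopper-Pearson) 95% interval. The reads are PCR copies and carry no molecular identifiers, so they are not independent molecules and these intervals cover counting error only. A gene is called higher or lower where it differs at least 2-fold and the interval leaves out 0. TMM places the typical gene near 0 and there is no spike-in, so higher and lower are relative to other genes.

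The targeted gene was low in both knockdown libraries. METTL16 had 44 reads in starved control cells, 9 in starved knockdown cells and 19 in knockdown cells with amino acids, or 77.0, 19.8 and 25.4 CPM. Its log2 ratio was -1.89 (-3.18 to -0.90), and with a mean of 24 reads it lies below the minimum and is not in the counts that follow. In a bulk library, fewer cells with the transcript and less transcript per cell cannot be told apart. MAT2A, the methyltransferase's best known mRNA target, had 270, 170 and 219 CPM, from 154, 77 and 164 reads. Its log2 ratio of -0.66 (-1.08 to -0.26) is short of a call. MAT2B, the regulatory subunit of the same enzyme, was above the control instead, with 42.0, 81.6 and 52.1 CPM and a ratio of 0.95 (0.18 to 1.76). In the list of METTL16 and methionine cycle genes 10 of 23 were measured. Of these 1 was called higher and 0 lower, where 5.03% and 4.57% of all genes compared were. The median was 0.25 against 0.04 over all genes. The median depends on the read minimum, at -0.03 over 19 members with 10 reads and -0.51 over 2 members with 100 reads. The called member was MTHFD1, an enzyme of one-carbon folate metabolism, at 1.01 (0.41 to 1.64), which lies under 2-fold when libraries are scaled by total counts (0.88), by DESeq2 size factors (0.99), by TMM on the 2 starved libraries (0.98) or by TMM on all genes (0.96). AHCY, which clears the product of methyl transfer, was at -0.35 (-0.68 to -0.04). Among 23 listed m6A writers, readers and erasers 8 were measured, and YTHDF3, a cytoplasmic m6A reader, was the 1 called, at -1.12 (-1.99 to -0.37), from 53, 19 and 45 reads.

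Of the 3876 genes 372 were called, 9.6%. The higher genes numbered 195, 5.03%, and the lower genes 177, 4.57%, so that 52.4% of called genes were higher. These shares are the background for every list count given here, and many list counts lie near them. The minimum is a mean over the control library and both knockdown libraries. A gene low in the control can therefore pass through the knockdown libraries. A gene low in both knockdown libraries, such as METTL16, can fall below the minimum. Scaling by total counts shifts the median of all genes by -0.12 and gives 133 higher and 236 lower genes, 36.0% higher. With that scaling every input ratio of the starved knockdown to the starved control, and every list median of them, moves down by the same amount. Footprint ratios and ratios of the knockdown in complete medium move down by other amounts. The share of genes called differed with depth. Among 1562 genes with a mean of 30 to 50 reads 100 were called higher and 110 lower with a median interval half-width of 0.77, and among 198 genes with a mean of 300 reads or more 15 were called higher and 2 lower with a half-width of 0.20. At the minimum itself, the 41 genes with a mean of 30 reads had a median ratio of 0.10 and ran from -1.32 to 1.28, and the 36 genes next below it had a median of -0.25 and ran from -1.22 to 1.25. The plot of ratio against reads shows how the called genes crowd at the low end.

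**Figure D1:**
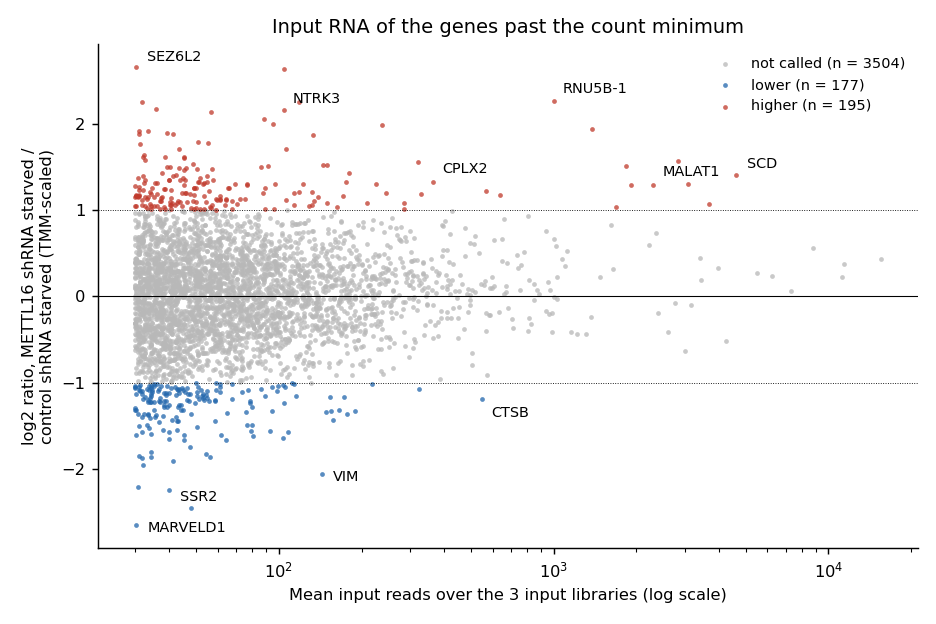
Log2 ratio of the starved METTL16 knockdown to the starved control (vertical axis) against mean reads over the 3 input libraries (horizontal axis, log scale), 1 point for each of 3876 genes, with dotted lines at 2-fold. Most of the 195 higher and 177 lower genes lie under 100 reads, and above 300 reads the called genes are 15 higher against 2 lower.

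The genes furthest above the control were ranked by the interval end nearest 0. NTRK3 (ENSG00000140538.16, GRCh38 chromosome 15, 87859751 to 88256739), the receptor for neurotrophin-3, had 35.0 CPM in starved control cells, 159 in starved knockdown cells and 294 in knockdown cells in complete medium, a log2 ratio of 2.16 (1.45 to 2.97). PDE3A, a phosphodiesterase that breaks down cyclic AMP, had 54.3, 218 and 208 CPM and a ratio of 1.99 (1.41 to 2.64). TM4SF4, a membrane protein with 4 transmembrane segments of the L6 family, had 35.0, 148 and 238 CPM and a ratio of 2.05 (1.34 to 2.88). In these genes both knockdown libraries stand well above the starved control. With no control in complete medium, shRNA and medium differ together where the knockdown in complete medium is set against that control, here and below. SEZ6L2, a neuronal surface protein, had 8.75, 59.5 and 78.8 CPM, but its control level rests on 5 reads and its mean is at the minimum because of the knockdown libraries, so its ratio of 2.65 (1.37 to 4.50) is wide. PDE10A, another cyclic nucleotide phosphodiesterase, had 24.5, 94.8 and 57.4 CPM and a ratio of 1.92 (1.05 to 2.94). Deeply covered genes in this group gave narrow intervals. SCD (ENSG00000099194.6, chromosome 10, 100347233 to 100364826), the desaturase that makes monounsaturated fatty acids, had 1664, 3485 and 8655 reads, or 2913, 7683 and 11560 CPM, and a ratio of 1.40 (1.31 to 1.48). CPLX2, a complexin that clamps vesicle fusion, had 319, 796 and 735 CPM and a ratio of 1.32 (1.06 to 1.59). CDH1, E-cadherin, the adhesion receptor of epithelial cells, had 82.3, 238 and 391 CPM and a ratio of 1.52 (1.03 to 2.06).

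The remaining genes among the 15 highest were FAM160B1, FLVCR1, IVNS1ABP, ATAD1, PPP2R1B, ANXA4 and USO1, with ratios from 1.43 in ANXA4 to 2.25 in FAM160B1. FAM160B1, FLVCR1, IVNS1ABP and PPP2R1B had 11, 14, 12 and 18 control reads and passed the minimum through the knockdown libraries. NTRK3, TM4SF4 and PDE10A, named above, had 20, 20 and 14 control reads and passed it in the same way. FLVCR1, a membrane transporter of haem and choline, had 24.5, 110 and 142 CPM. ATAD1, an ATPase that pulls mislocalised proteins out of the outer mitochondrial membrane, had 66.5, 218 and 242 CPM. ANXA4, a calcium-dependent phospholipid-binding protein, had 163, 439 and 331 CPM, and USO1, a tether of vesicles at the Golgi, 85.8, 245 and 154 CPM. ANXA4, FAM160B1, IVNS1ABP, PPP2R1B, PDE10A and USO1 stood lower in the knockdown in complete medium than in the starved knockdown, but above the control.

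The genes furthest below the control were ranked in the same way. VIM (ENSG00000026025.16, chromosome 10, 17228241 to 17237593), the intermediate filament protein vimentin, had 527 CPM in starved control cells, 126 in starved knockdown cells and 96.2 in knockdown cells in complete medium, from 301, 57 and 72 reads, a log2 ratio of -2.06 (-2.50 to -1.66). SSR2, part of the TRAP complex that helps chains cross the endoplasmic reticulum membrane, had 130, 26.5 and 45.4 CPM and a ratio of -2.24 (-3.31 to -1.40). FOXM1, a transcription factor of the G2 and M phases, had 175, 48.5 and 54.8 CPM and a ratio of -1.83 (-2.59 to -1.17). HSF1, the master regulator of heat shock genes, followed with 172, 46.3 and 66.8 CPM and a ratio of -1.86 (-2.64 to -1.20). In these 4 genes the knockdown was low in both media. In others the starved knockdown was the low library and the knockdown in complete medium stood nearer the control. MARVELD1, a membrane protein with a MARVEL domain, had 61.3, 8.82 and 69.5 CPM, where the low level is 4 reads, and a ratio of -2.65 (-4.75 to -1.31). NR2F6, an orphan nuclear receptor, had 75.3, 15.4 and 56.1 CPM and a ratio of -2.20 (-3.68 to -1.12). AGRN, the basement membrane proteoglycan agrin, had 341, 126 and 297 CPM and a ratio of -1.43 (-1.89 to -1.01).

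The rest of the 15 lowest genes were CD70, LPCAT1, F2RL1, TNRC18, CANT1, PIEZO1, CLCF1 and S1PR3. S1PR3, a receptor for sphingosine 1-phosphate, had 422, 163 and 287 CPM, and F2RL1, a receptor opened by proteases, had 284, 94.8 and 160 CPM. LPCAT1, which reacylates lysophosphatidylcholine, had 256, 81.6 and 171 CPM, and PIEZO1, a channel gated by membrane stretch, had 198, 63.9 and 134 CPM. In each of these 8 genes the knockdown in complete medium lay between the starved knockdown and the control, as the plot of levels shows.

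**Figure D2:**
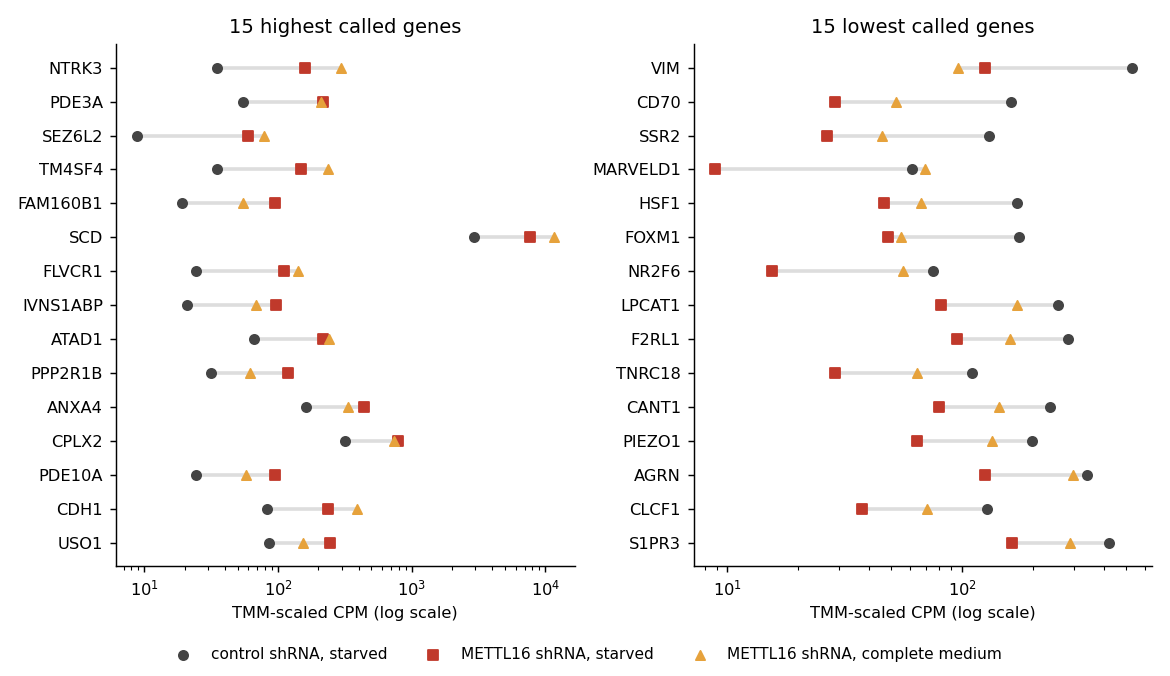
TMM-scaled CPM (log scale) of the 15 highest and 15 lowest called protein-coding genes in the starved control (circles), the starved METTL16 knockdown (squares) and the METTL16 knockdown in complete medium (triangles), 1 library each, joined by grey bars. Among the higher genes the triangles all lie right of the control, and among the lower genes MARVELD1 at 69.5 lies right of its control level of 61.3.

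Cholesterol synthesis genes lay mostly above the control. The cholesterol pathway turns acetyl-CoA into sterols through mevalonate, and its genes are driven by SREBP transcription factors when membrane sterol is low. Of 22 listed cholesterol synthesis genes 13 were measured. Of these 5 were called higher and 0 lower, where 5.03% and 4.57% of all genes were, and 11 lay above 0. The median was 0.59, or 0.36 with no minimum, against 0.04 over all genes. In pathway order, HMGCS1, which makes HMG-CoA, had 117 CPM in starved control cells, 260 in starved knockdown cells and 310 in knockdown cells in complete medium, a log2 ratio of 1.14 (0.70 to 1.60). IDI1, which isomerises the isoprene unit, had 56.0, 148 and 88.2 CPM and a ratio of 1.39 (0.77 to 2.05). HMGCS1 was highest in the knockdown in complete medium, while IDI1 was highest in the starved knockdown. SQLE, the epoxidase of squalene, had 107, 240 and 458 CPM and a ratio of 1.17 (0.71 to 1.65). MSMO1, which removes methyl groups from the sterol ring, had 68.3, 194 and 175 CPM and a ratio of 1.497 (0.95 to 2.09). Members without a call ran from EBP, a sterol isomerase, at -0.45 (-1.21 to 0.27), to FDFT1, squalene synthase, at 0.85.

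Genes that sense and move sterols showed the same direction in part. Of 20 listed, 13 were measured, 3 were called higher and 0 lower, and the median was 0.45, or 0.83 with a minimum of 100 reads. TMEM97, the sigma-2 receptor, which binds the NPC1 cholesterol carrier, had 133, 333 and 403 CPM and a ratio of 1.32 (0.92 to 1.74). ABCA1, the exporter that loads HDL with cholesterol, had 102, 209 and 313 CPM and a ratio of 1.04 (0.56 to 1.54). It lies under 2-fold with total counts (0.92) and with TMM on all genes (0.99). SREBF1, which encodes an SREBP, was at 0.70 (0.46 to 0.94), and INSIG1, which holds SREBP in the endoplasmic reticulum, at 0.83 (0.53 to 1.13). Of 21 listed fatty acid synthesis genes 15 were measured, and SCD was the 1 called, with a median of 0.38. FASN, fatty acid synthase, had 1175, 1530 and 890 CPM and a ratio of 0.38 (0.23 to 0.54), and ACACA, acetyl-CoA carboxylase, had a ratio of 0.07 (-0.37 to 0.50).

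Promoters of 4 lipid genes are shown. They were picked as genes called higher that hold the short word CCAAT, so that they share it follows from the choice. The CCAAT box is bound by NF-Y, a factor known to act beside SREBP at such genes. Sequences are RefSeq promoter windows on GRCh38.p14, read 5′ to 3′ on the strand of the gene, and capitals mark CCAAT or its reverse complement ATTGG. The windows lie at chr5:43313493-43313582 (minus strand) for HMGCS1, chr4:165327469-165327654 (plus) for MSMO1, chr10:100346989-100347066 (plus) for SCD and chr17:28318987-28319134 (plus) for TMEM97, all upstream of the annotated start.
HMGCS1: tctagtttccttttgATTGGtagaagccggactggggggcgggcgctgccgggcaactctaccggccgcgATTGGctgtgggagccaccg
MSMO1: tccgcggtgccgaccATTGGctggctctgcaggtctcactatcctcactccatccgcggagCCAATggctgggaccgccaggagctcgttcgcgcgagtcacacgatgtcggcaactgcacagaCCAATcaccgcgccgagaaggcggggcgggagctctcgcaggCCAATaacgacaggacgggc
SCD: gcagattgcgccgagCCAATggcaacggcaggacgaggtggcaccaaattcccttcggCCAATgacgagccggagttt
TMEM97: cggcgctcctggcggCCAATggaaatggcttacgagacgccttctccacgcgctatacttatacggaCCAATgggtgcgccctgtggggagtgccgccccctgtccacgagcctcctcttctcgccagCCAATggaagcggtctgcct

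The HMGCS1 window holds 2 copies, the MSMO1 window 4, the SCD window 2 and the TMEM97 window 3. In the 250 bases upstream of the start, on either strand, CCAAT was found in 7 of the 9 measured cholesterol synthesis genes with a promoter entry, 77.8%, in 10 of 14 fatty acid synthesis genes and in 5 of 11 sterol sensing genes. Of the 9 genes of these lists that were called higher, 6 had an entry and 5 of those held CCAAT. The share was 42.5% over the 3161 genes compared that had an entry and 37.0% over all 27305 promoters. Over all called genes it was 42.6% for the higher and 39.0% for the lower, near the share of the genes compared. The word TCACNCCAC, a core of the sterol response element, was in 0 of the 9 cholesterol synthesis promoters, 1 of 11 sterol sensing promoters and 1 of 14 fatty acid synthesis promoters, and in 1.09% of all promoters. TGACGTCA, the cyclic AMP response element, was in 1.47% of higher and 2.84% of lower genes against 3.92% of the genes compared, and TGANNNNGC, a core of the antioxidant response element, in 43.4% and 41.8% against 44.1%. A match is a description of these letters and not a binding site.

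Small nuclear RNAs stood high in the knockdown. Of 25 small nuclear RNA genes measured, 15 were called higher and 0 lower, with a median of 1.10, and other scalings gave 12 (total counts) to 15 higher and 0 lower. U4 and U5 form the tri-snRNP with U6 and are built into every major spliceosome. RNU5B-1 had 328, 1254 and 1424 reads, or 574, 2765 and 1902 CPM, a log2 ratio of 2.27 (2.09 to 2.45). RNU5A-1 had 940, 3598 and 2649 CPM and a ratio of 1.94 (1.80 to 2.08), and RNU5D-1 50.8, 320 and 184 CPM and a ratio of 2.64 (2.07 to 3.28). RNU4-2 had 2654, 7855 and 4603 CPM and a ratio of 1.57 (1.48 to 1.65), and RNU4-1 was at 1.51 (1.40 to 1.62). In each of these 5 genes both knockdown libraries lay above the control, and the starved knockdown was the highest. Members of the minor spliceosome stayed short of a call, RNU4ATAC at 0.38 (0.08 to 0.68) and RNU6ATAC at 0.19 (-0.20 to 0.58). Of U6 itself only scattered copies were measured. RNU6-9 had 25, 40 and 112 reads and a ratio of 1.00 (0.25 to 1.79), at the 2-fold threshold itself. Small nuclear RNAs come in many near-identical copies, and the way reads with several matches were counted is not given in the sources used here, so values of single copies are uncertain.

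Other noncoding RNAs moved unevenly. The mitochondrial ribosomal RNAs were called higher, MT-RNR1 with 2036, 4958 and 3109 CPM and a ratio of 1.28 (1.18 to 1.39) and MT-RNR2 with 4295, 9006 and 6046 CPM and a ratio of 1.07 (1.00 to 1.14), which is 0.94 with total counts and then no call. SNORD3A, the U3 RNA that guides cleavage of ribosomal precursor RNA, had 59.5, 287 and 255 CPM and a ratio of 2.25 (1.71 to 2.86). RN7SL1, the RNA of the signal recognition particle, stayed near the control at 0.23 (0.18 to 0.29), and RNY5, a Y RNA with 10519, 9774 and 13383 reads, was also at 0.23 (0.19 to 0.27). RN7SKP180, a copy of the 7SK RNA, was the 1 noncoding gene called lower, at -1.33 (-1.94 to -0.79), with 196, 77.2 and 183 CPM. Among 20 listed long noncoding RNAs 5 were measured and 4 were called higher, with a median of 1.14. The whole class stood lower than this list. Over all 25 measured genes annotated as long noncoding RNA, 7 were called higher and 0 lower, with a median of 0.33. NEAT1, the scaffold of nuclear paraspeckles, had 226, 664 and 707 CPM and a ratio of 1.55 (1.25 to 1.86). MALAT1, a nuclear speckle RNA, had 2827, 6929 and 2894 CPM and a ratio of 1.29 (1.21 to 1.38). NEAT1 was high in the knockdown in both media, but MALAT1 in complete medium was back at the control level. PVT1 was at 1.14 (0.37 to 1.98), and TUG1, at 1.03 (0.36 to 1.75), lies under 2-fold with total counts (0.91) and with TMM on all genes (0.98). Among 17 host genes of small nucleolar RNAs 9 were measured, with a median of 0.50, and 4 were called higher. These were TAF1D, a protein-coding gene, at 1.88, and ZFAS1 at 1.40, SNHG3 at 1.35 and SNHG6 at 1.13. ZFAS1, SNHG3 and SNHG6 are among the 7 long noncoding RNAs called higher above. The share of reads in nuclear protein-coding genes was 82.6%, 77.0% and 77.5%, and its part in these noncoding differences was not tested.

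Spliceosomal proteins did not follow the small nuclear RNAs. Of 42 listed U6 snRNP and spliceosome proteins 28 were measured, with a median of -0.01. Of these 0 were called higher and 1 lower, where 5.03% and 4.57% of all genes were. The called gene, MEPCE, caps the 7SK RNA and stabilises it together with U6, and it had 117, 44.1 and 36.1 CPM and a ratio of -1.39 (-2.21 to -0.67). None of 31 measured hnRNP and SR splicing factors was called, with a median of 0.11 that is -0.02 with total counts. POLR2A, the largest subunit of RNA polymerase II, had 172, 57.3 and 152 CPM and a ratio of -1.56 (-2.26 to -0.95), and it was the 1 called of 10 measured polymerase subunits, low in the starved knockdown alone.

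Membrane and secretory genes held calls in both directions. The endoplasmic reticulum takes in secreted proteins through the Sec61 translocon, whose partners cut the signal peptide and help the chain through. Of 30 listed translocon and signal peptidase genes 28 were measured, with a median of 0.36. Of these 4 were called higher and 1 lower, where 5.03% and 4.57% of all genes were. The higher ones were SPCS2, a signal peptidase subunit, at 1.36 (0.30 to 2.58), SEC63 at 1.25 (0.51 to 2.06), SEC62 at 1.11 (0.64 to 1.61) and SSR1 at 1.19 (0.87 to 1.53). SSR1, with 212, 485 and 529 CPM, encodes a partner of SSR2 in the TRAP complex, and the levels of these 2 subunits lay on opposite sides of the control. SEC62 is at 0.99 with total counts. Of 22 measured folding genes XBP1, the transcription factor of the unfolded protein response, was called higher at 1.12 (0.50 to 1.78), as was ERN1, the sensor kinase that splices its mRNA, at 1.08 (0.32 to 1.91). Both lie just under 2-fold with total counts, XBP1 at 0.99 and ERN1 at 0.96, and the median of the list was 0.26.

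The neuronal and secretory vesicle list had 7 of 33 members measured, with a median of 0.97, or 0.33 with a minimum of 10 reads, and 3 called higher, NTRK3, SEZ6L2 and CPLX2. That list was made with the values of these genes known, so its count is no separate support. SYT1, a calcium sensor of vesicle release, was at 0.97, and NLGN2 was lowest at -0.72 (-1.58 to 0.06). Of 11 measured cyclic AMP phosphodiesterase and kinase A genes only PDE3A and PDE10A were called, and the median of 0.10 turns to -0.02 with total counts.

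Adhesion and matrix genes made up several of the lower calls. Basement membranes are sheets of laminin, type IV collagen, perlecan and agrin under epithelia. Of 18 listed genes 11 were measured, 0 were called higher and 4 lower, where 5.03% and 4.57% of all genes were. The median was 0.01, with a sign that changes with the scaling (-0.12 to 0.02). LAMA3, a chain of laminin-332, had 142, 44.1 and 123 CPM and a ratio of -1.66 (-2.47 to -0.97). HSPG2, perlecan, had 289, 115 and 331 CPM and a ratio of -1.32 (-1.81 to -0.88), and LAMA5, a chain of laminin-511, had 583, 278 and 683 CPM and a ratio of -1.07 (-1.38 to -0.77). In LAMA3, HSPG2, LAMA5 and AGRN the starved knockdown was the low library, and the knockdown in complete medium lay close to the control, with log2 ratios to it of -0.21, 0.20, 0.23 and -0.20. COL4A5, a type IV collagen chain, went the other way at 0.998 (0.16 to 1.89), just under the call, and at 1.01 with TMM on protein-coding genes.

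The 15 measured matrix and mesenchymal genes had a median of -0.12 that is -0.50 with no minimum. Of these 3 were called lower and 0 higher, where 4.57% and 5.03% of all genes were. Beside VIM these were THBS1, thrombospondin, with 436, 216 and 409 CPM and a ratio of -1.01 (-1.36 to -0.67), and COL5A1, a fibrillar collagen chain, at -1.004 (-1.69 to -0.38). Both lie under 2-fold with TMM on protein-coding genes, at -0.9971 and -0.99. The median of 22 measured integrin, syndecan and focal adhesion genes was -0.29, and 2 were called lower, where 4.57% of all genes were. These were ITGA5, the fibronectin receptor chain, at -1.86 (-3.00 to -0.95), and ZYX, zyxin of focal adhesions, with 254, 124 and 128 CPM, at -1.03 (-1.51 to -0.59). Of 18 measured epithelial junction and keratin genes CDH1 was called higher and MARVELD1, CDCP1 and SPINT2 lower, with a median of 0.00 that is -0.12 with total counts. CDCP1, a surface glycoprotein that binds Src kinases, had 116, 37.5 and 26.7 CPM and a ratio of -1.59 (-2.49 to -0.84). SPINT2, an inhibitor of surface serine proteases, had 429, 170 and 331 CPM and a ratio of -1.33 (-1.73 to -0.96). Keratins stayed near 0, KRT7 at -0.04 (-0.18 to 0.10), KRT8 at 0.10 (-0.08 to 0.27) and KRT18 at 0.08 (-0.16 to 0.31).

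Death receptors, which signal through caspase-8 when bound by TNF family ligands, are the genes the study's aim names. None of the 4 that reached the minimum was called. TNFRSF10B, the TRAIL receptor DR5, had 184, 161 and 256 CPM. TNFRSF10A, the other TRAIL receptor, had 54.3, 35.3 and 64.1 CPM, TNFRSF1A, the TNF receptor, 383, 419 and 644 CPM, and TNFRSF21 196, 243 and 256 CPM. TNFRSF1A was at 0.13 (-0.16 to 0.41) and TNFRSF21 at 0.31 (-0.09 to 0.70), so no difference between the starved libraries was detectable at this depth. FAS had 10, 10 and 27 reads, and TNFRSF25 had none in any of the 3 libraries. In the extrinsic pathway list 9 of 23 genes were measured, and CFLAR, the caspase-8 inhibitor FLIP, was the 1 called, with 25, 47 and 50 reads. Among other TNF family genes 4 of 17 were measured and 2 were called lower, both ligands. CD70, the ligand of CD27, had 161, 28.7 and 52.1 CPM and a ratio of -2.44 (-3.45 to -1.65), and TNFSF9, the ligand of 4-1BB, had 71.8, 17.6 and 62.8 CPM and a ratio of -1.95 (-3.33 to -0.91). CD70 was low in the knockdown in both media and TNFSF9 in starvation alone. TNFRSF12A, the receptor of TWEAK, was at -0.74 (-1.06 to -0.44), and LTBR at -0.12 (-0.48 to 0.23). In intrinsic apoptosis 9 of 26 genes were measured and 2 were called higher, PMAIP1, the BH3-only protein NOXA, at 1.28 (0.51 to 2.13) from 21, 41 and 28 reads, and CYCS, cytochrome c, at 1.25 (0.70 to 1.84) from 41, 78 and 77 reads.

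Starvation is known to engage several stress programmes. ATF4 is the transcription factor that amino acid shortage turns on through the kinase GCN2. Of 42 listed genes of its response 28 were measured, with a median of -0.09. Of these 1 was called higher and 1 lower, near the 5.03% and 4.57% of all genes. DDIT4, an mTORC1 inhibitor, had 78.8, 181 and 180 CPM and a ratio of 1.19 (0.66 to 1.76), and PYCR1, of proline synthesis, had 94.5, 39.7 and 52.1 CPM and a ratio of -1.23 (-2.11 to -0.46). In the amino acid sensing and mTORC1 list 12 of 35 were measured and 2 called lower, MLST8, an mTOR subunit, at -1.17 (-2.08 to -0.37), and ULK1, the kinase that starts autophagy, at -1.06 (-1.83 to -0.36). The median of that list was -0.41, or -0.26 with a minimum of 10 reads and -0.16 with none. CTSB, the lysosomal protease cathepsin B, had 728, 253 and 666 reads, or 1274, 558 and 890 CPM, and a ratio of -1.19 (-1.40 to -0.98), 1 of 2 lower genes among 31 measured in autophagy and lysosome. Of 11 measured p53 targets RRM2B, a ribonucleotide reductase subunit, was the 1 called, at 1.15 (0.45 to 1.90), with a median of 0.57 that is 0.12 with no minimum. Its levels of 47.3, 106 and 33.4 CPM were high in the starved knockdown alone. Of 18 measured NF-kB targets and cytokines TNFAIP3, which shuts NF-kB signalling off, was called higher with 56.0, 172 and 33.4 CPM and a ratio of 1.61 (1.01 to 2.26), and NFKB1, an NF-kB subunit, lower at -1.18 (-2.01 to -0.45). Among 31 measured NRF2 targets EPHX1, an epoxide hydrolase, was the 1 called, with 149, 368 and 566 CPM and a ratio of 1.30 (0.92 to 1.70).

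Amino acid transporters and tRNA synthetases were mixed. Of 11 measured transporters SLC36A4 at 1.15 (0.29 to 2.08) and SLC6A15 at 1.09 (0.42 to 1.80) were called higher and SLC38A10 at -1.28 (-1.91 to -0.72) lower. SLC6A15 is at 0.96 with total counts. Of 19 measured cytosolic synthetase genes AIMP1, a scaffold of the multisynthetase complex, was called higher at 1.04 (0.34 to 1.78), or 0.91 with total counts and 0.99 with TMM on all genes, and VARS1, the valine enzyme, lower at -1.44 (-2.24 to -0.75). None of 33 measured initiation and elongation factors was called, with a median of -0.17. EIF3B, an initiation factor subunit at -0.998, passes 2-fold with total counts (-1.12), DESeq2 size factors (-1.01), TMM on the 2 starved libraries (-1.03) and TMM on all genes (-1.05).

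Several large gene families held no call. Of 76 measured ribosomal protein genes 0 were called, with RPL22 highest at 0.99 and with a median of 0.05 that is -0.07 with total counts. Of 35 measured replication-dependent histone genes 0 were called and 29 lay below 0, with a median of -0.22. H1-5 was lowest at -0.94 (-1.58 to -0.36), and it passes 2-fold with total counts at -1.07. All 12 mitochondrially encoded mRNAs measured lay above 0, or 11 of 12 with total counts, and none was called. They ran from MT-CO2 at 0.07 (0.01 to 0.12), which turns to -0.059 (-0.11 to -0.0039) with total counts, to MT-ND3 at 0.83 (0.71 to 0.95), with a median of 0.41. None of 20 measured immediate early genes was called either, and their median of 0.06 is -0.06 with total counts. KLF6 was highest at 0.95 (0.49 to 1.43), with 114, 220.5 and 46.8 CPM, so that the starved knockdown was the high library. Of 18 measured DNA replication genes HELLS, a chromatin remodeller, was called higher at 1.35 (0.64 to 2.11), and GINS1 and POLD1, of the replication fork, were called lower at -1.55 and -1.36. Of 23 measured mitotic genes AURKB, the kinase of the chromosomal passenger complex, was called lower at -1.22 (-2.28 to -0.32).

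**Figure D3:**
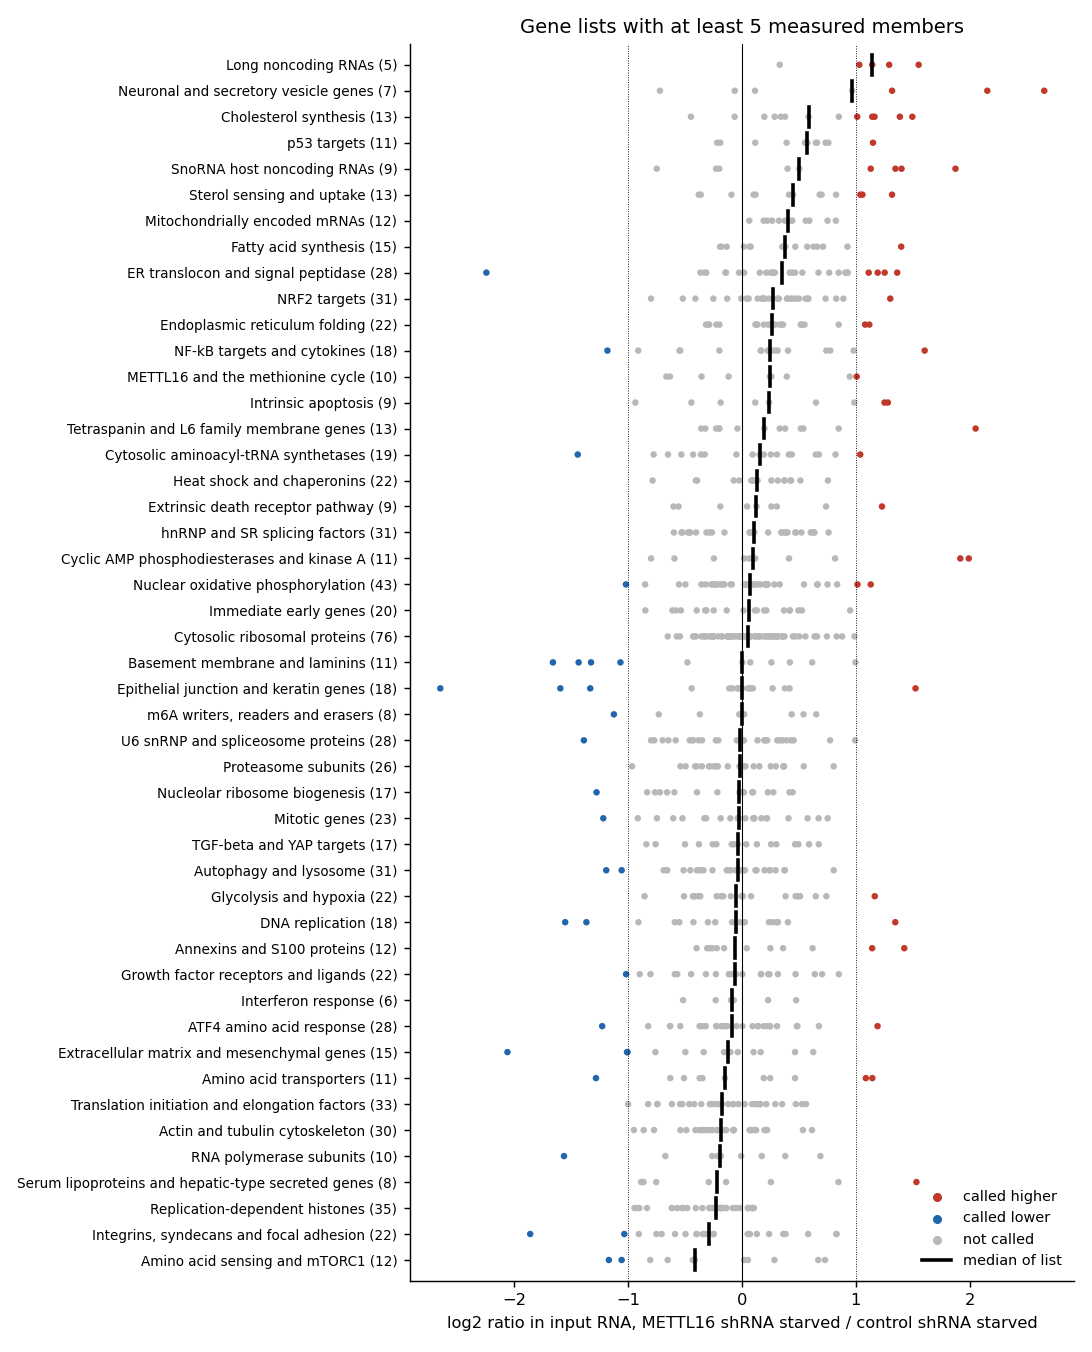
Log2 ratio of the starved METTL16 knockdown to the starved control for each measured member (points) of the 47 lists with at least 5 measured members, with the number measured in brackets and the list median as a bar. At the minimum of 30 reads the listed long noncoding RNAs, neuronal and vesicle genes and cholesterol synthesis have the highest medians, at 1.14, 0.97 and 0.59. Amino acid sensing and mTORC1 has the lowest, at -0.41. Over all 25 measured genes annotated as long noncoding RNA, listed or not, the median is 0.33.

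The third input library gives the level of the same genes in knockdown cells in complete medium. Both ratios below use the same control library, so they are set side by side and not compared further. The 195 higher genes had a median ratio of 1.21 in the starved knockdown and of 0.95 in the knockdown in complete medium (quartiles 0.47 and 1.46). The 177 lower genes had a median of -1.21 and of -0.55 (quartiles -0.85 and -0.20). Since the genes were chosen on the starved knockdown, a smaller median in the other library can follow from the choice.

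Footprint libraries of the same starved cells are separate libraries, and 2866 of the 3876 genes also had a mean of at least 30 footprint reads. Footprints are the fragments that ribosomes protect, and for an mRNA their number reflects both the RNA and its translation. The 2866 genes also hold noncoding RNAs. Median footprint ratios were 1.64 over 12 small nuclear RNAs, 1.16 over 7 long noncoding RNAs and 0.01 over 2833 protein-coding genes. Small nuclear RNAs took 5.98% of the control footprint library and 14.1% of the knockdown one, both starved. The part of noncoding RNAs in the shared calls and correlations below was not tested. Of the 137 genes higher in input RNA that were measured in footprints, 41 were called higher there too, which is 29.9% of these genes and 39.8% of the 103 genes higher in footprints. Over all genes measured in both, 3.59% were higher in footprints. Of the 107 lower genes 16 were lower in footprints too, 15.0% of these and 22.2% of the 72 genes lower in footprints, where 2.51% of all genes were. With total counts the shared calls are 22 higher and 37 lower in place of 41 and 16, so the balance between directions turns with the scaling. A call in the opposite direction occurred in 3 of the higher and 0 of the lower genes. The median footprint ratio was 0.40 in the higher and -0.32 in the lower genes. These medians, and the single footprint ratios below, depend on the scaling. TMM puts the footprint totals at 923618 in the control and 481092 in the knockdown, against 781831 and 518955 reads. With total counts every footprint ratio of this pair therefore moves down. The median of the higher genes then comes nearer 0 and that of the lower genes goes further from it.

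NTRK3 had the larger difference in footprints, at 3.07, and TM4SF4, SCD and CDH1 were at 2.32, 1.56 and 1.70. VIM was at -1.91, SSR2 at -2.54 and CD70 at -1.14. HSF1, low in input RNA, lay on the other side at 1.08 (0.32 to 1.84) in footprints, from 30 control and 33 knockdown reads, with a mean just under the footprint minimum. The lipid genes were on the same side in footprints, HMGCS1 at 1.10 and SQLE at 1.14, while IDI1 was at 0.37 (-0.23 to 0.95). Other genes had a difference in input RNA with footprints near the control. POLR2A was at 0.45 (-0.10 to 0.98) in footprints, LAMA5 at 0.35 (0.02 to 0.66), HSPG2 at 0.07 (-0.37 to 0.50), TNFSF9 at 0.17 (-0.31 to 0.63) and ATAD1 at 0.12. HELLS, at -1.18 (-2.04 to -0.46), was lower in footprints and higher in RNA. Across the 2866 genes the input and footprint ratios had a Pearson r of 0.36 and a Spearman rho of 0.28. These describe genes of 4 libraries, which share the line, the medium and a protocol, and genes are not independent replicates. The Pearson r was 0.28 over 1932 genes with 30 to 100 mean input reads, 0.48 over 742 genes with 100 to 300 and 0.75 over 192 genes with 300 or more.

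**Figure D4:**
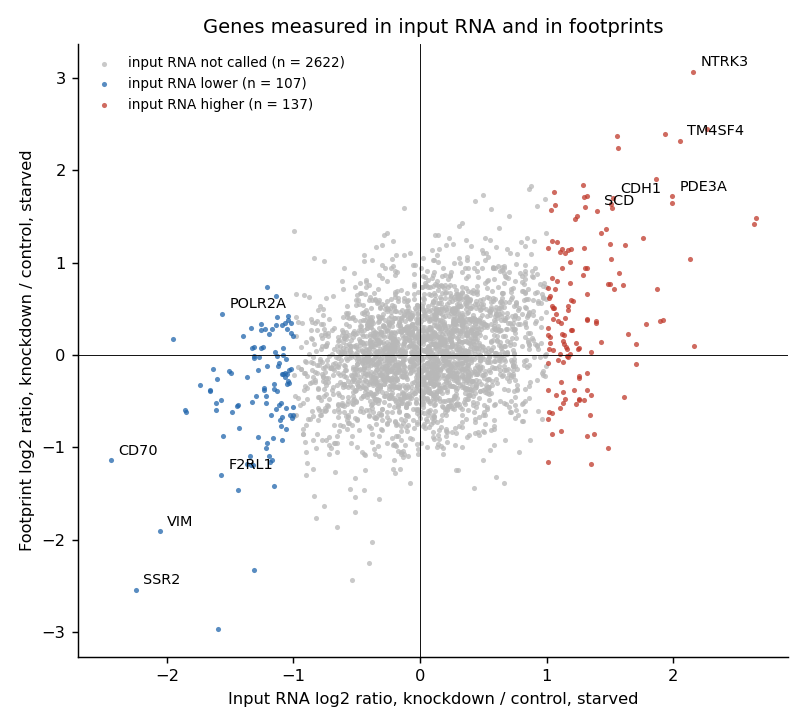
Footprint log2 ratio (vertical axis) against input RNA log2 ratio (horizontal axis), starved METTL16 knockdown over starved control, for the 2866 genes measured in both, coloured by their call in input RNA. NTRK3 (2.16 and 3.07) and SSR2 (-2.24 and -2.54) lie along the diagonal, and POLR2A (-1.56 and 0.45) lies off it.

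Median ratios differed by chromosome. Of the 3851 genes placed on a chromosome, the 261 on chromosome 19 had a median of -0.29. Of these 1 was called higher and 16 lower, 0.38% and 6.13%, where 5.03% and 4.57% of all genes were. On chromosome 16 the median over 163 genes was -0.20, with 3 higher (1.84%) and 8 lower (4.91%). On chromosome 4 it was 0.26 over 117 genes, with 13 higher (11.1%) and 4 lower (3.42%). Chromosome 17, which carries METTL16, had a median of -0.07 over 319 genes, with 10 higher (3.13%) and 22 lower (6.90%). Against the same control, the knockdown in complete medium had a median of -0.27 on chromosome 19, and the separate footprint libraries had 0.03 over 204 of its genes. The input medians share their control library, and the footprint median of chromosome 19 lies near 0. In the starved input ratio the median also differed with promoter GC content. Over the 3147 of 3784 protein-coding genes with a promoter entry (83.2%), it was 0.09 in the lowest, 0.03 in the middle and -0.06 in the highest tertile of promoter GC content. That order was not seen in the knockdown in complete medium, at -0.01, 0.01 and -0.04, or in footprints, at -0.01, -0.02 and 0.04. Within each tertile chromosome 19 lay below the other chromosomes in the starved input ratio, at -0.18 against 0.10 in the lowest, -0.31 against 0.07 in the middle and -0.38 against -0.04 in the highest. Among tertiles of exonic length the medians were 0.01, -0.00 and 0.09. The part of base composition in the calls was not tested.

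**Figure D5:**
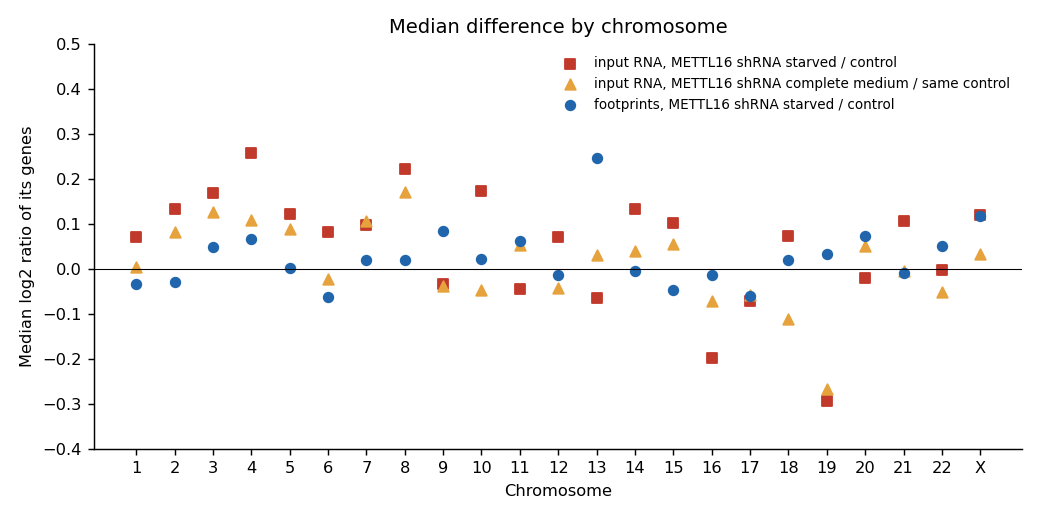
Median log2 ratio of the genes on each chromosome for input RNA of the starved METTL16 knockdown (squares), input RNA of the METTL16 knockdown in complete medium against the same control (triangles) and footprints of the starved knockdown (circles). Chromosome 19 is lowest in both input comparisons, at -0.29 and -0.27, and lies at 0.03 in footprints.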

How the data were processed

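The deposited table holds raw read counts per gene, made by the authors with no normalization, for 60648 genes. Per the submitters' processing notes, the tools were STAR 2.7.5c, featureCounts 2.0.1, Bowtie2 2.2.5 and cutadapt 2.8, on build GRCh38. Parameters, the use of strand in counting and the treatment of reads with several matches are not given in the sources used here, so overlapping, antisense and multicopy genes are uncertain. A record broken over 3 lines was left out. Per the labels' protocols, input RNA was fragmented chemically, selected by size on a gel and amplified by PCR.

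Samples were grouped by their titles. Genes with a mean of at least 30 reads over the 3 input libraries were kept. TMM factors (edgeR 4.0.16, R 4.3.3) were made on these genes. Log2 ratios used a pseudocount of 0.5 and Clopper-Pearson 95% intervals, computed with Python 3.11.15, numpy 2.4.6, scipy 1.17.1 and pandas 2.3.3 and drawn with matplotlib 3.10.9. The intervals were tried on simulated independent counts. Such counts hold neither PCR copies nor variation between cultures, so the trial checks the computation only. DESeq2 1.42.0 gave size factors for an alternative. At 3 reads a gene stands at 5.25, 6.61 and 4.01 CPM in the starved control, starved knockdown and knockdown in complete medium. Positions and promoters come from RefSeq on GRCh38.

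Named genes are the 15 highest and 15 lowest called protein-coding genes, leaving out mitochondrially encoded and histone genes, by the interval end nearest 0. METTL16, MAT2A and death receptors are named in any case. From the lists described, called members and the ends of the range are named, apart from a few that are not reported here. Some others (MAT2B, AHCY, SREBF1, INSIG1, FASN, ACACA, FDFT1, SYT1, keratins, noncoding RNAs outside the lists) were chosen after their values were seen. The genes compared and the 51 gene lists were chosen with earlier results of these data known. Alternatives were other scalings, minimums, folds and a pseudocount.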

Additional observations from a re-analysis of the deposited data

How the results depend on the processing

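The main counts of 195 higher and 177 lower genes became 572 and 507 with a minimum of 10 reads, 43 and 20 with 100, 881 and 645 with none, 496 and 416 at 1.5-fold, and 28 and 23 at 3-fold. Genes called the same way in footprints, 41 higher and 16 lower, became 22 and 37 with total counts, 89 and 45 with a minimum of 10 reads, 21 and 4 with 100, 139 and 64 with none, 123 and 60 at 1.5-fold, and 7 and 3 at 3-fold. Other scalings gave 183 and 182 (DESeq2 size factors), 205 and 172 (TMM on protein-coding genes), 179 and 188 (TMM on the 2 starved libraries) and 167 and 194 (TMM on all genes, chosen after seeing the data). Without genes that are not protein-coding, 163 higher and 176 lower genes were called, and a pseudocount of 1 gave 193 and 170. The median of mitochondrially encoded mRNAs was 0.28 with total counts. With a minimum of 100 reads the medians were -0.51 for the methionine cycle and -0.48 for basement membrane genes, from fewer measured members. Without a minimum those of p53 targets, neuronal genes and amino acid sensing were 0.12, 0.33 and -0.16 in place of 0.57, 0.97 and -0.41. A tally was made over 153 genes named by rule, without those chosen after their values were seen. Of the 153, 2 turned direction with total counts, MT-CO2 to -0.059 and H1-4 to -0.020, neither of them called. With the other scalings or the pseudocount 0 turned. With total counts 12 of the 153 lost the call and 6 gained it. Outside the tally, KRT8, KRT18 and ACACA also turn below 0 with total counts, and MT-RNR2 loses its call. No paired analysis was possible because each group has 1 library. With 1 library a side, between-culture variation is unknown, and genes near 30 reads carry intervals of about 0.77 on either side.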
